A study of Mus musculus with 4 samples.

Results

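The 9 genes of MHC class I antigen presentation described here were B2m, H2-K1, H2-D1, H2-T23, H2-M3, Tap1, Tap2, Tapbp and Nlrc5, chosen by name from the 44509 gene symbols of a mouse testis expression table. Class I molecules are held on the surface of nearly all nucleated cells, where a heavy chain paired with beta-2-microglobulin (B2m) shows short peptides from inside the cell to CD8 T cells and natural killer cells. The proteasome cuts the peptides, the TAP transporter carries them into the endoplasmic reticulum, and tapasin (Tapbp) holds empty class I molecules at the transporter until they are loaded. Within the testis, germ cells carry little class I, while Sertoli, Leydig, endothelial and stromal cells and macrophages carry more.

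RNA was sequenced in 4 testis libraries. According to the source labels, 2 came from mice with oligozoospermia made with busulfan, a DNA-alkylating drug toxic to spermatogonia, and 2 from such mice that then received Cus-1, a resin glycoside from cuscutae. Every library therefore came from a busulfan-treated animal, and no untreated testis was analysed here. The sources used here give no strain, age, dose or time and do not say whether the libraries of a group came from separate animals, and the spread between them may be technical. The titles of the busulfan libraries begin with BPA and those of the treated libraries with CUS2, which the labels leave unexplained. The treatment of each group, and the name Cus-1, rest on the source label alone. The deposited values are FPKM, fragments per kilobase of gene and per 1000000 mapped fragments. The commonest value of FPKM times length, within a low range set beforehand, was taken as a single fragment. It gave an estimated depth of 11.9 to 13.6 times 1000000 fragments per library. All 8 spermatocyte, 8 round spermatid and 8 elongating spermatid markers lay above both busulfan values in each Cus-1 library, and 15 of 16 Sertoli markers lay below. Of the 19837 genes tested, 36.6% lay above and 31.7% below in this way.

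Promoters of 7 of the 9 genes were found in the RefSeq table for GRCm38.p6, the build also called mm10. H2-K1, H2-D1, B2m and Tapbp are printed because they carry the most abundant transcripts of the group. The first 3 of them had lower values in both Cus-1 libraries and Tapbp did not. Each window runs 5′ to 3′ on the gene's strand, from 250 bases before to 50 bases after a start of transcription given in that table. Capitals mark matches, on either strand, to CCAAT (the Y box letters) and TGACG (CRE-like letters, as in the X2 box). They also mark GGGGA and TCCC with any base between (a kappaB-like site). GAAA and GAAA with any 2 bases between (the core of an interferon-stimulated response element) are marked too. So are GAA and GAAAC with any 2 bases between, an altered form of that core added after the sequences had been read. The H2-K1 window is the first of its 2 windows in the table, at chr17:34000298-34000597 on the minus strand.
H2-K1: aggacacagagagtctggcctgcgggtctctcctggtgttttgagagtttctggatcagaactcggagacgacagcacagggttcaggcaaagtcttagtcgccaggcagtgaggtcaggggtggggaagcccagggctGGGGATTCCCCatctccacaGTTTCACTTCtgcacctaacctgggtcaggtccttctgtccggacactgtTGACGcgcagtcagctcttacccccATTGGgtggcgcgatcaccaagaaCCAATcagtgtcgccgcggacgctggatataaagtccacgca
The H2-D1 window lies at chr17:35262844-35263143 on the plus strand.
H2-D1: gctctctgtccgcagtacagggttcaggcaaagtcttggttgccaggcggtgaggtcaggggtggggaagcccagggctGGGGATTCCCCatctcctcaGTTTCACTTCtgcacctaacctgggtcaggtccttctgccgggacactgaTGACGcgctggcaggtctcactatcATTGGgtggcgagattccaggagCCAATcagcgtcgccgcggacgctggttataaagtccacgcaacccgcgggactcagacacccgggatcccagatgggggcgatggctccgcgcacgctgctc
The B2m window lies at chr2:122147437-122147736 on the plus strand.
B2m: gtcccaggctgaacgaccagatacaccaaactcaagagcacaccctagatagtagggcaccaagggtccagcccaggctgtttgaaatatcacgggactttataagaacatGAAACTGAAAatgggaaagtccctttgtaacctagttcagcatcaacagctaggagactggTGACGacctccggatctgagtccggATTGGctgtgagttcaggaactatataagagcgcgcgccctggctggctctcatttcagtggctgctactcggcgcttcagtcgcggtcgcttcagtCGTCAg
The Tapbp window lies at chr17:33919228-33919527 on the plus strand. That is inside the span given below for the gene (33915899 to 33929292) and not at its first base.
Tapbp: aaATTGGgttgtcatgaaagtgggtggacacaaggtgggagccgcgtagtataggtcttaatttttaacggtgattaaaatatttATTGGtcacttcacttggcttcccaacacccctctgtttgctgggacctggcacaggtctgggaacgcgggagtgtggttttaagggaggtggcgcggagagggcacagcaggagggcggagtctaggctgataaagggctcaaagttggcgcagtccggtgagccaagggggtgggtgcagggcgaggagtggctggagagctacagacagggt

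The H2-K1 and H2-D1 windows were 88.3% identical over 239 aligned bases, gaps not counted, and held the same kinds of match in the same order. By the same measure the H2-K1 window was 72.9% identical to that of B2m, 70.9% to that of H2-T23 and 75.1% to that of H2-M3. The kappaB-like site of H2-K1 and H2-D1 matched once on each strand at positions 1 base apart. It was followed by the added interferon element, by TGACG and by a pair of Y box matches. The first Y box match of that pair began at base -16 from the start in H2-K1 and at base -76 in H2-D1. That kappaB-like site was found in 0.323% of the 32851 promoters of the table and in no promoter of the other 5 members with a window. The added interferon element was in H2-K1, H2-D1 and H2-M3 and in 1.73% of all promoters. It was chosen after these sequences had been read, so its presence in members cannot be weighed against that share. The core itself was in B2m and H2-T23 and in 3.44% of all promoters. TGACG was in 5 of the 7 members, Tapbp and H2-T23 lacking it, against 20.8% of all promoters. The Y box letters were in all 7 members that had a window, but also in 37.4% of all promoters. A match is a match of letters only, and no binding was measured.

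The members differed widely in abundance. Per length of gene, H2-D1 had the highest mean over the 4 libraries at 396 FPKM, followed by B2m at 253, H2-K1 at 191, Tapbp at 105, H2-T23 at 19.9, Tap2 at 7.12, Tap1 at 3.23, H2-M3 at 2.41 and Nlrc5 at 0.522 FPKM. This order held within 3 of the 4 libraries, the exception being Cus-1 2, where H2-M3 stood above Tap1. Over all libraries the ranges of H2-D1, B2m and H2-K1 overlapped from neighbour to neighbour, as did those of H2-T23, Tap2, Tap1 and H2-M3. The range of H2-K1 lay above that of Tapbp, that of Tapbp above that of H2-T23, and that of H2-M3 above that of Nlrc5.

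**Figure D1:**
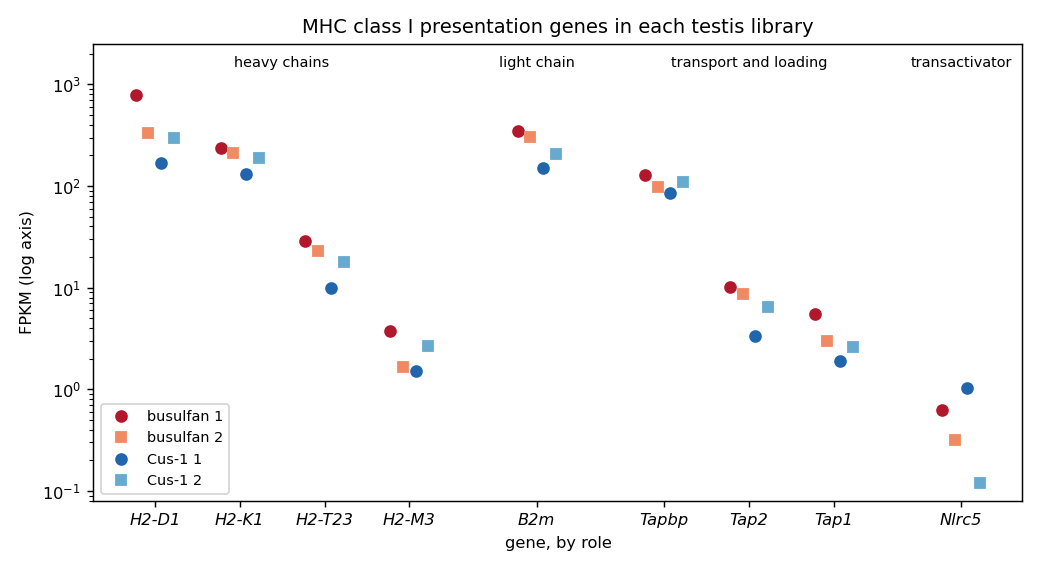
FPKM of each of the 9 genes, on a log axis, in the 4 libraries, grouped by role, 1 point per library (circles are library 1 and squares library 2 of a group). H2-D1, B2m, H2-K1 and Tapbp lie between 86.1 and 790.2 FPKM and the others between 0.12 and 29.0 FPKM.

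Testes given Cus-1 had lower class I levels in their libraries than testes given busulfan alone for 6 of the 8 members that could be tested, and the difference of no member passed the adjusted threshold. B2m, 3 heavy chains and both genes of the TAP transporter had both Cus-1 libraries below both busulfan libraries, while H2-M3 and Tapbp overlapped. Of all 19837 tested genes, 31.7% had both Cus-1 libraries lower in this way and 36.6% had both higher. Limma, adjusted by Benjamini-Hochberg across all tested genes, called 0 members and 0 genes in all (0%). At an unadjusted limma p under 0.05, 3 members were lower (B2m, H2-T23 and Tap2) and 0 higher, against 9.96% and 18% of all tested genes. The log2 fold change, always Cus-1 minus busulfan on log2(FPKM + 1), was negative for all 8 tested members. Its median was -0.76 against 0.04 for all tested genes. When libraries were centred on Sertoli markers, 4 of the 8 turned positive, Tap1 among them at only 0.02. For 1 gene in groups of this size, 0.33 is the smallest two-sided p that exact permutation of the libraries can give.

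B2m, the light chain that class I heavy chains need to fold and reach the cell surface, lies on chromosome 2 (122147686 to 122153083) in mm10. Its level was 349 and 301 FPKM under busulfan alone, against 152 and 208 FPKM with Cus-1. The groups did not overlap, and the gap between them (301 against 208) was wider than the gap within either group. The means were 325 ± 34.3 and 180 ± 40.1 FPKM (SD, n = 2), with a log2 fold change of -0.86 (SE 0.21, limma adjusted p = 0.152, 95% interval -1.42 to -0.31). That fold change was lower than those of all but 2.85% of the tested genes. Leaving out any 1 library gave values between -1.09 and -0.63. B2m shared no run of 50 bases with the transcript of another gene in GENCODE M21.

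The heavy chains decide which peptides are shown, and H2-K1 and H2-D1 are the classical, highly variable ones of the mouse. H2-K1 (chromosome 17, 33996017 to 34000347) had levels of 236 and 211 FPKM in the busulfan libraries and of 130.4 and 188 FPKM in the Cus-1 libraries. The groups did not overlap, but Cus-1 2 was closer to busulfan 2 than to Cus-1 1. Its log2 fold change was -0.51 (SE 0.22, limma adjusted p = 0.200), between -0.77 and -0.25 with 1 library left out. H2-D1 (chromosome 17, 35262730 to 35267499) had levels of 790.2 and 333 FPKM under busulfan alone, against 167 and 295 FPKM with Cus-1. Busulfan 1 stood far above the other 3 libraries, and busulfan 2 was only slightly above Cus-1 2. The log2 fold change of H2-D1 was the most negative of the members at -1.20, with the widest error (SE 0.50, limma adjusted p = 0.188). It was -0.58 without busulfan 1 and -1.83 without busulfan 2, so 1 library decided its size.

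H2-T23 encodes Qa-1, a nonclassical heavy chain that presents leader peptides of other class I molecules to the CD94/NKG2 receptors of natural killer cells. Its busulfan values of 29.0 and 22.8 FPKM lay above its Cus-1 values of 10.02 and 17.9 FPKM. The log2 fold change was -0.89 (SE 0.31, limma adjusted p = 0.164), and -0.50 without Cus-1 1. H2-M3, a nonclassical chain that presents N-formylated peptides such as those of bacteria, was low, at 3.74 and 1.67 FPKM under busulfan alone against 1.53 and 2.69 FPKM. Its groups overlapped, and its log2 fold change of -0.22 had a 95% interval from -1.21 to 0.77 that leaves the direction unresolved. The sign turned without busulfan 1 (0.19) and without Cus-1 1 (0.05). Over the 4 heavy chains the median was -0.70, ranging from -1.02 to -0.38 with 1 library left out.

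The summed FPKM of the 4 heavy chains was 1059 and 569 under busulfan alone and 309 and 504 after Cus-1. H2-D1 supplied 74.6% of that sum in busulfan 1 and 58.5%, 54.1% and 58.6% in busulfan 2, Cus-1 1 and Cus-1 2. The ratio of H2-D1 to H2-K1, chosen after its values were seen, was 3.35 in busulfan 1 and 1.57, 1.28 and 1.57 in the same other libraries. H2-D1 was 2.38 times as high in busulfan 1 as in busulfan 2, H2-M3 2.24 times and Tap1 1.84 times. For the other 5 tested members that ratio lay between 1.12 (H2-K1) and 1.29 (Tapbp). Parts of these transcripts also occur in transcripts of other genes. That held for 14.3% of the 50-base windows of H2-D1, 8.79% of those of H2-K1 and 28.8% of those of H2-T23. Such windows lay in 103 other genes for H2-D1, 24 for H2-K1 and 99 for H2-T23. H2-K1 shared 6.94% of its windows with H2-D1. How the authors divided such reads is not given in the sources used here, and the reference carries 1 haplotype of genes that differ between strains, so levels of single heavy chains are uncertain.

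The ratio of B2m to H2-K1 within a library was 1.48 and 1.42 with busulfan and 1.16 and 1.11 with Cus-1. This ratio does not depend on how libraries are scaled, and the groups were apart by more than their spread (exact two-sided permutation p = 0.33, the smallest that 2 against 2 allows). The ratio of B2m to H2-D1 was 0.442 and 0.904 with busulfan and 0.908 and 0.706 with Cus-1, and the groups overlapped. B2m to H2-T23 also overlapped, at 12.0 and 13.2 against 15.1 and 11.7, as did B2m to H2-M3. Among the heavy chains, only H2-K1 gave a ratio with B2m that separated the groups. Under random labels a ratio would separate groups of this size with probability 0.33. Nothing particular to H2-K1 can therefore be read from it.

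**Figure D2:**
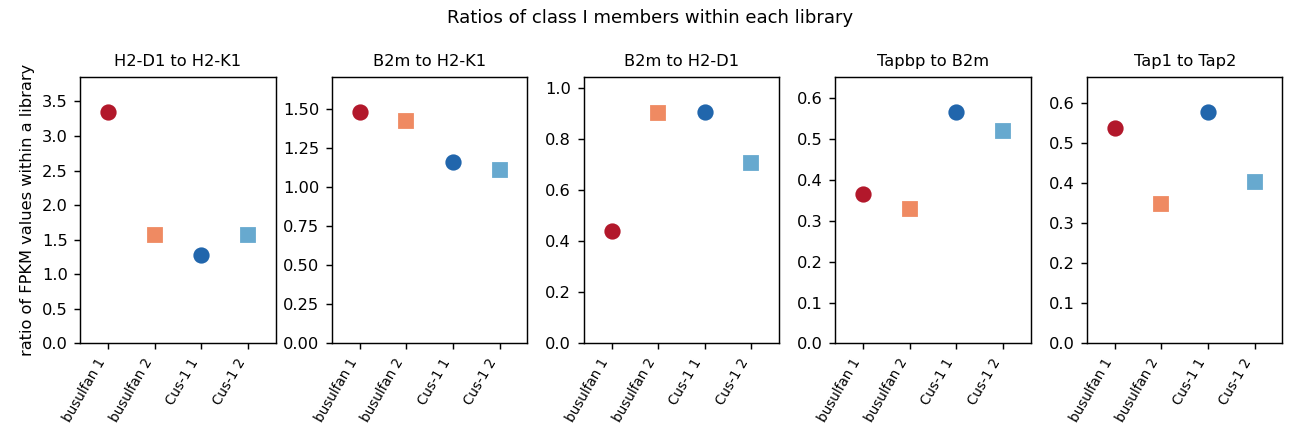
Ratio of FPKM values within each of the 4 libraries for 5 pairs of members, 1 point per library, each axis starting at 0. H2-D1 to H2-K1 is 3.35 in busulfan 1 and 1.28 to 1.57 elsewhere, B2m to H2-K1 and Tapbp to B2m separate the groups, and Tap1 to Tap2 does not.

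Tap1 and Tap2 encode the paired chains of the peptide transporter. Both genes lie near each other in the class II region of chromosome 17 (34187553 to 34197225 and 34203527 to 34216321). Tap2 had 10.2 and 8.57 FPKM in the busulfan libraries, and 3.31 and 6.42 FPKM in those with Cus-1. Tap1 had 5.46 and 2.97 FPKM, and 1.91 and 2.58 FPKM. Neither gene overlapped between the groups, although busulfan 2 and Cus-1 2 were close for Tap1. The log2 fold change was -0.87 for Tap2 (SE 0.32, limma adjusted p = 0.170) and -0.65 for Tap1 (SE 0.32, adjusted p = 0.232). Tap1 was at -0.30 without busulfan 1 and Tap2 at -0.48 without Cus-1 1. The ratio of Tap1 to Tap2 was 0.537 and 0.347 with busulfan and 0.577 and 0.402 with Cus-1, and the groups overlapped. Exons of Tap1 share 212 bases with Psmb9 on the opposite strand, and those of Tap2 share bases with 2 antisense genes, and the strand setting of the counts is not given in the sources used here.

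Tapbp encodes tapasin and lies near H2-K1 (chromosome 17, 33915899 to 33929292). Its levels were 128 and 98.9 FPKM in the busulfan libraries, against 86.1 and 108 FPKM. The groups overlapped, Cus-1 2 being above busulfan 2, and the log2 fold change was -0.22 (SE 0.21, limma adjusted p = 0.486, 95% interval -0.75 to 0.31). It was -0.03 without busulfan 1, -0.05 without Cus-1 1, -0.38 without Cus-1 2 and -0.40 without busulfan 2. The ratio of Tapbp to B2m, chosen after its values were seen, was 0.365 and 0.329 with busulfan and 0.567 and 0.520 with Cus-1. Tapasin transcripts thus stood higher against B2m in both Cus-1 libraries (exact two-sided permutation p = 0.33). Exons of Tapbp share 904 bases with an antisense gene, Gm19412, and 149 bases with Zbtb22 on the same strand, so its level is uncertain. The median over the 3 peptide loading genes was -0.65.

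Nlrc5 encodes the transactivator of class I genes, which acts through factors bound at the X and Y boxes of their promoters, as CIITA does for class II. It was listed at 0.63 and 0.32 FPKM in the busulfan libraries, and at 1.02 and 0.12 FPKM in the others. The Cus-1 libraries held both its highest and its lowest value, and the gene was under the filter of 1 FPKM in 2 libraries and was not tested. At the estimated depth and with all its exons counted, those values stand for about 65.7, 37.0, 114 and 12.1 fragments. It was the 1 member that was higher in Cus-1 1 than in any other library.

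**Figure D3:**
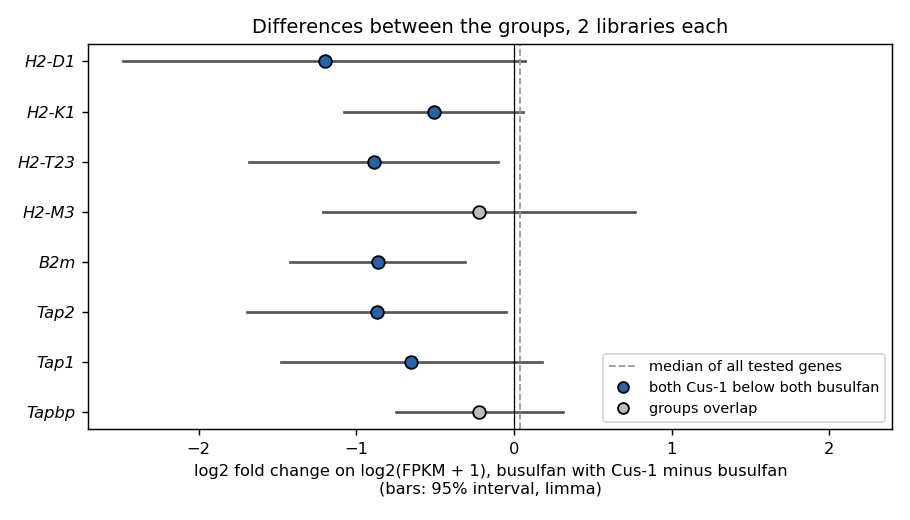
Log2 fold change of the 8 tested members on log2(FPKM + 1), busulfan with Cus-1 minus busulfan, with 95% limma intervals (2 libraries per group, deposited scale). The intervals of H2-T23, B2m and Tap2 lie below 0 before adjustment, and the smallest adjusted p among the members is 0.152.

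Across libraries the members followed a common order. Busulfan 1 was the highest and Cus-1 1 the lowest library for all 8 tested members, a pattern that 23.7% of all tested genes had. For 6 of the 8 the full order was busulfan 1, busulfan 2, Cus-1 2, Cus-1 1, which 19.4% of all tested genes followed. Cus-1 2 was between 1.26 and 1.94 times as high as Cus-1 1 for the 8 tested members. Among 9386 other genes with a mean of 10 FPKM or more, the 5 whose centred log2 values over the 4 libraries lay closest to the mean of B2m, H2-K1 and H2-D1 were Sat1, Ifitm3, Ctnnal1, Gstm6 and Slc45a3. The distances ran from 0.0516 for Sat1 to 0.0830 for Slc45a3, where the median gene was at 1.07. Sat1, the spermidine and spermine acetyltransferase gene named in the series title, had 61.2 and 41.04 FPKM under busulfan alone against 22.9 and 34.0 FPKM. Likeness over 4 libraries rests on few values, and the mean profile stood apart from the genes that form it: B2m was farther from it than 135 genes, H2-K1 than 918 and H2-D1 than 2015.

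**Figure D4:**
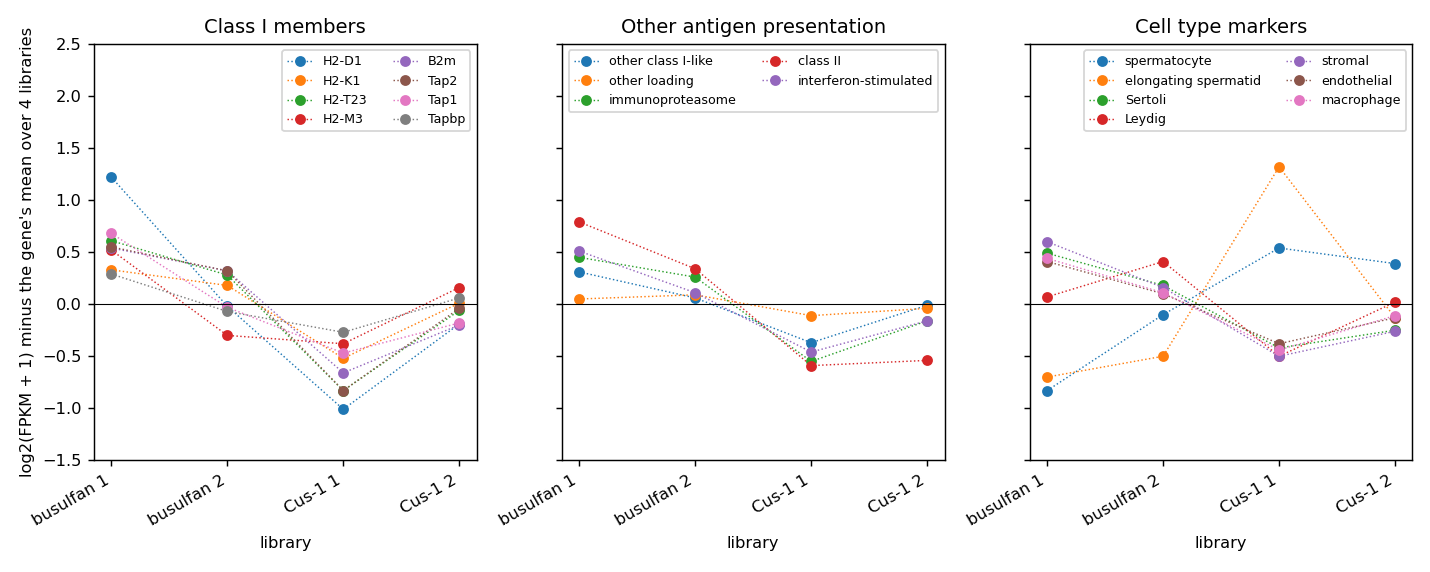
Log2(FPKM + 1) minus each gene's mean over the 4 libraries for the 8 tested members (left), and the mean of the same quantity over the tested genes of other antigen presentation lists (middle) and cell type marker lists (right). Dotted lines only join points of 1 gene or list. The members are highest in busulfan 1 and lowest in Cus-1 1, spermatocyte and elongating spermatid markers run from -0.83 and -0.70 in busulfan 1 to 0.54 and 1.32 in Cus-1 1, and Sertoli, stromal, endothelial and macrophage markers run the other way.

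Genes that work with the members differed unevenly between the groups, and 0 of them passed the adjusted threshold in limma. Of 13 tested other class I and class I-like heavy chains, 9 had both Cus-1 libraries lower and 0 higher (median log2 fold change -0.40), among them Fcgrt, the neonatal Fc receptor, at 79.5 and 62.0 against 38.7 and 53.7 FPKM. Hfe, which regulates iron uptake, was at -0.51 (SE 0.26) and the nonclassical H2-T22 at -0.54 (SE 0.29). Mr1, which presents vitamin metabolites, overlapped (-0.09, SE 0.29). All 5 immunoproteasome and proteasome activator genes were lower in both, with Psmb8, a catalytic subunit swapped in under interferon, at 14.95 and 11.2 against 3.41 and 7.38 FPKM (-1.20, SE 0.37, limma adjusted p = 0.152). Psme1 and Psme2, which form the interferon-inducible activator cap, were at -0.49 (SE 0.22) and -0.67 (SE 0.20), and Psmb10 at -0.31 (SE 0.16). The chaperones that class I shares with other proteins had log2 fold changes near 0, Calr at -0.06 (SE 0.16), Canx at -0.10 (SE 0.14), Pdia3 at -0.00 (SE 0.15) and Hspa5 at 0.11 (SE 0.17). The 12 genes of that loading and editing list had a median of -0.08, with 6 lower and 2 higher in both libraries. Across all tested genes, 31.7% were lower and 36.6% higher in both Cus-1 libraries. At an unadjusted limma p under 0.05 there were 2 lower other heavy chains, 1 lower loading gene and 3 lower proteasome genes, and 0 higher. The shares of all tested genes at that p were 9.96% lower and 18% higher. The counts of other heavy chains and loading genes were near the first share.

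Class II genes, which present to CD4 T cells, had the most negative median of the antigen presentation lists, -1.20 over 8 tested genes, 6 of which had both Cus-1 libraries lower. Cd74, the invariant chain, had 88.3 and 63.2 FPKM under busulfan alone against 18.4 and 17.3 FPKM, and H2-Aa at 54.7 and 32.5 against 11.2 and 11.6 FPKM. H2-Ab1 was at -1.07 (SE 0.23), and the lysosomal protease gene Ctss overlapped at -0.54 (SE 0.34). The Cus-1 libraries lay close to each other for some of these genes and not for others. Cus-1 2 was 0.942 times as high as Cus-1 1 for Cd74, 1.03 times for H2-Aa and 1.59 times for Ctss, and over the 8 tested genes the ratio ran from 0.577 for H2-DMa to 2.87 for H2-DMb1, both named after their values were seen. In the class II list 5 genes were lower at an unadjusted limma p under 0.05, and 0 passed after adjustment. Among all tested genes, 9.96% were lower at that p, and 31.7% were lower in both Cus-1 libraries.

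Regulators and interferon-stimulated genes were measured alongside. Of 23 regulators of class I, both Cus-1 libraries were lower for 16 and higher for 2 (median -0.46). Irf1, an activator of class I and Tap1 named here after its values were seen, was at 15.7 and 10.5 against 6.01 and 7.75 FPKM. On the log2 fold change scale, the interferon receptor gene Ifngr1 was at -0.69 (SE 0.23) and Ifnar2 at -0.79 (SE 0.25), their kinase gene Jak1 at -0.64 (SE 0.20), and Rela, an NF-kappaB subunit, overlapped at -0.09 (SE 0.20). Of 19 tested interferon-stimulated genes, 16 were lower and 0 higher in both (median -0.66), with Ifi27 at 188 and 176 against 98.4 and 148 FPKM and Bst2 at 51.5 and 59.4 against 27.9 and 34.3 FPKM. Ifitm3, which blocks viral entry, was at -0.81 (SE 0.29) and Ifi35 at -0.70 (SE 0.23). None of these genes passed the adjusted threshold in limma. At an unadjusted limma p under 0.05, 9 regulators were lower and 1 higher, and 6 interferon-stimulated genes were lower and 0 higher. At that p, 9.96% of all tested genes were lower and 18% higher. In both Cus-1 libraries, 31.7% of all tested genes were lower and 36.6% higher. Receptors for class I were scarce, Cd8a being listed at 0 in 2 libraries and Klrd1 in both Cus-1 libraries. The 2 tested genes of that list, both of inhibitory receptors of myeloid cells, were Pirb at -0.63 (SE 0.23) and Lilrb4a at -0.27 (SE 0.29). Binding of class I by the product of Lilrb4a is not established here.

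Markers of cells that carry class I were lower in the same libraries as the members. For comparison, 31.7% of all tested genes were lower and 36.6% higher in both Cus-1 libraries. The 12 macrophage markers summed to 847 and 686 FPKM under busulfan alone against 506 and 620 FPKM (8 lower and 1 higher in both, median -0.63), with Lyz2 at -0.64 (SE 0.27) and C1qa at -0.56 (SE 0.22). The 10 endothelial markers summed to 84.1 and 63.4 against 43.1 and 52.8 FPKM (8 lower, median -0.47), and the 8 stromal markers to 459 and 282 against 186 and 238 FPKM (8 lower, median -0.75). Sertoli markers summed to 10007 and 7915 against 4881 and 6058 FPKM (median -0.71), and Leydig markers to 26867 and 26373 against 13143 and 19216 FPKM (5 of 8 lower, median -0.49). Insl3, a Leydig cell hormone gene, made up most of the Leydig sum, and the other 7 Leydig markers overlapped in sum, at 3919 and 5895 against 2878 and 4615 FPKM. The macrophage, endothelial, stromal and Sertoli sums stayed lower in both Cus-1 libraries without their most abundant gene. Peritubular markers overlapped in sum, at 522 and 351 against 365 and 425 FPKM (2 lower and 1 higher, median -0.28). No marker of these 6 somatic lists was at 0 in any library. Spermatocyte, round spermatid and elongating spermatid markers had medians of 0.92, 1.03 and 1.19, the last summing to 3148 and 3265 against 11851 and 4275 FPKM. T and natural killer cell markers summed to 15.6 and 20.6 against 25.6 and 18.7 FPKM, with 5 of 12 at 0 in a library. Without Cd3d, their most abundant gene, the other 11 summed to 13.4 and 6.13 against 6.85 and 4.89 FPKM. Busulfan 1, the lowest library with Cd3d, was then the highest. B cell markers summed to 23.3 and 14.1 against 7.20 and 4.92 FPKM, with 2 of 6 at 0. Dendritic cell markers summed to 6.45 and 4.70 against 5.35 and 4 FPKM, with 1 of 6 at 0. Fewer cells of a type and less RNA per cell cannot be told apart in whole tissue, and the part of cell mixture in the class I differences was not tested.

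Set against the somatic markers in place of the whole library, the members split. Centring each library on its Sertoli, macrophage or endothelial markers shifted the median over all genes, 0.04 on the deposited scale, to 0.71, 0.60 and 0.56, and every member moved with it. B2m then stood at -0.19, -0.31 and -0.35, H2-D1 at -0.53, -0.65 and -0.69, H2-T23 at -0.22, -0.33 and -0.38 and Tap2 at -0.20, -0.32 and -0.36. H2-K1 was at 0.16, 0.04 and 0.00, Tap1 at 0.02, -0.09 and -0.14, Tapbp at 0.46, 0.34 and 0.30 and H2-M3 at 0.45, 0.34 and 0.29. Tap1 was low, and log2(FPKM + 1) understates the change of low genes. Its mean FPKM was 1.88 times as high with busulfan alone as with Cus-1, against 1.81 times for B2m and 1.93 for Tap2. Without centring, Tap1 was at -0.65, and at -0.83 on log2(FPKM + 0.1), where B2m was at -0.87. Centring was not run with that pseudocount, so the place of Tap1 apart from B2m is uncertain. Centring on marker lists shifts all genes alike, so the place of a member relative to the median of all genes is the same as on the deposited scale. Against the somatic markers themselves, H2-K1, Tapbp and H2-M3 no longer had a negative sign under any of the 3 centrings. No member passed the adjusted threshold under any of these scalings, the smallest limma adjusted p over all members and alternatives being 0.104.

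**Figure D5:**
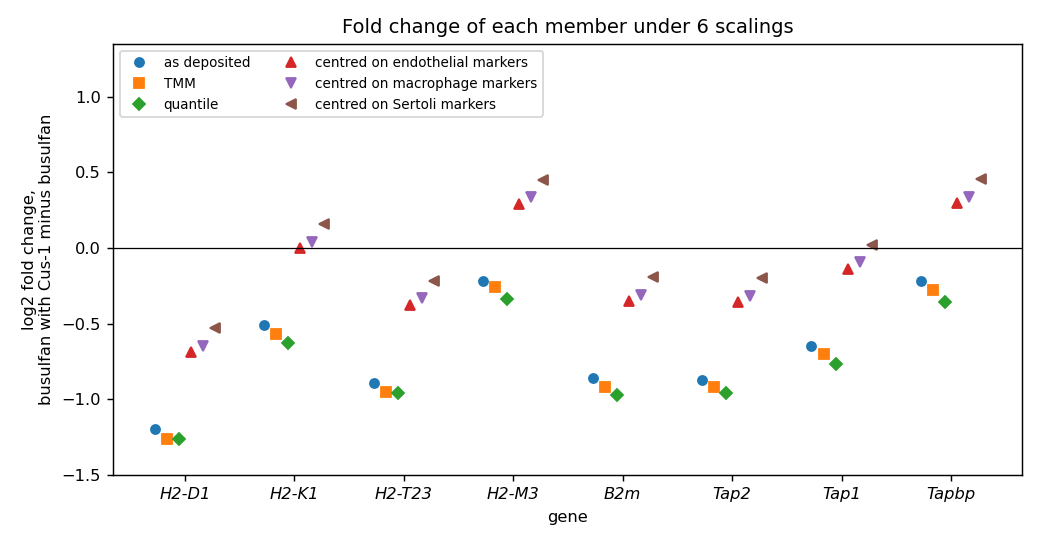
Log2 fold change of the 8 tested members, busulfan with Cus-1 minus busulfan, under 6 scalings of the 4 libraries, 1 symbol per scaling. On the deposited, TMM and quantile scales all are negative; centred on Sertoli markers, H2-K1 (0.16), H2-M3 (0.45), Tap1 (0.02) and Tapbp (0.46) are positive.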

How the data were processed

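RNA of 4 mouse testis libraries, 2 busulfan and 2 busulfan with Cus-1, was analysed from 1 table of FPKM values that the authors deposited, printed to 2 decimals. Reads were placed on mm10, per the submitters' processing notes. For the aligner, counter, annotation, gene lengths, filters and strand setting, nothing is stated in the sources used here. Columns were matched to samples by library name and groups taken from the source label, and replicates were numbered in order of submission. Of 45536 rows with values, 910 had no gene name and held 0.641% to 0.688% of the summed FPKM of a library; they were left out. Of 44509 symbols, 115 had several rows, of which the one of highest mean was kept.

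The 19837 genes that reached 1 FPKM in 2 or more libraries were tested with limma 3.58.1 in R 4.3.3, fitted to log2(FPKM + 1) with the variance trended on the mean, two-sided, with Benjamini-Hochberg adjustment and a threshold of 0.05. A fold change on that scale understates the change of low genes. Depth was estimated from the commonest value of FPKM times length in genes with 1 transcript of 300 to 2000 bases. That value was sought within a low range set beforehand and taken as a single fragment, so the range bounds the depth. Positions and shared sequence came from GENCODE M21 and promoters from RefSeq (GRCm38.p6). No set test was run. The members, the gene lists and the tests were chosen with earlier results of these data known. Genes named are the 9 members, the 4 most abundant tested genes of each pathway list, the 5 of closest pattern and some of the 2 most abundant markers of a cell type. Others are said to be chosen later, apart from genes listed at 0. The 15 alternatives changed the filter, pseudocount, scaling, variance model or libraries used.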

Additional observations from a re-analysis of the deposited data

How the results depend on the processing

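No member passed the adjusted threshold under any of the 15 alternatives. B2m, H2-D1, H2-T23 and Tap2 had a negative log2 fold change in all of them, and outside centring on marker lists 92 of the 94 member values computed were negative. The exceptions were H2-M3 at 0.19 without busulfan 1 and at 0.05 without Cus-1 1, where leaving out 1 library gave -0.63 to 0.19, and H2-M3 and Tap1 were not tested with the 5 FPKM filter. Centred on Sertoli markers, 3 members had groups apart, counted in either direction, whereas the 6 on the deposited scale were all lower. Tapbp was among the 3, with both Cus-1 libraries higher. The heavy chain median was then -0.03 and the peptide loading median 0.02, with H2-K1 at 0.16, H2-M3 at 0.45, Tap1 at 0.02 and Tapbp at 0.46. Centred on macrophage markers, these medians were -0.14 and -0.09, with H2-K1 at 0.04, H2-M3 at 0.34 and Tapbp at 0.34. Centred on endothelial markers, they were -0.19 and -0.14, with H2-K1 at 0.00, H2-M3 at 0.29 and Tapbp at 0.30. These shifts follow from the construction, which subtracts the marker mean from every gene. With 1 library left out, the heavy chain median ran from -1.02 to -0.38 and the peptide loading median from -0.98 to -0.30, and the lone library of a group was assumed to vary like the other group. No paired analysis was possible because the labels give the samples of the 2 groups no shared number or animal. The main limits are 2 libraries per group, an unknown division of reads between similar heavy chain genes, and the low level of H2-M3, Tap1 and Nlrc5.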
